A study of Mus musculus with 3 samples.

Results

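The genes described are 10 members of the immediate early response: the AP-1 subunits Fos, Fosb, Jun, Junb and Jund, the related factor Atf3, the zinc finger factor Egr1, and Ier2, Dusp1 and Btg2. They were found by their symbols among the 27998 genes of a single-cell RNA sequencing matrix, and all 10 had counts. On mouse build GRCm38 (GENCODE M21) they lie at chr12:85473890-85477273 (Fos), chr7:19302696-19310051 (Fosb), chr4:95049034-95052222 (Jun), chr8:84974484-84978718 (Junb), chr8:70698949-70700616 (Jund) and chr1:191170296-191218039 (Atf3). Egr1 lies at chr18:34859823-34864984, Ier2 at chr8:84661331-84662852, Dusp1 at chr17:26505590-26562128 and Btg2 at chr1:134075170-134079120, and all 10 are annotated as protein-coding. Their levels are given across cell classes named from marker genes and across the libraries, and their co-detection is given within microglia-like cells.

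Immediate early genes are transcribed within minutes of a signal, without new protein synthesis, because the factors that switch them on are already in the cell and are activated by kinases. Fos and Jun proteins pair through leucine zippers to form AP-1, which binds short DNA elements. Jun proteins can also pair with each other, whereas Fos proteins need a Jun partner, and Junb and Jund often act more weakly than Jun. Atf3 is a stress-induced factor of the same zipper class that often represses its targets, Egr1 is induced through serum response elements, and Ier2 is a small nuclear protein of the same early wave. Dusp1 removes phosphate from mitogen-activated protein kinases and Btg2 restrains growth and promotes mRNA decay, so both belong to the feedback side of the response. In brain myeloid cells these genes are known to be induced while tissue is digested with warm enzymes, as well as by signals in the living brain.

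The cells were sorted with an antibody to Cd11b, an integrin that microglia, other myeloid cells and NK cells carry, from the brains of C57BL6J female mice of 5 months, without the cerebellum. The 3 labelled groups were untreated mice (Ctrl, 1 animal), mice after 14 days on a diet with PLX5622 at 1200 mg/kg (D0, 2 animals pooled), and mice given control diet for 2 days after the same treatment (D2, 1 animal). PLX5622 inhibits Csf1r, a receptor that microglia need to survive. Every group shared the strain, the sex, the age, the Cd11b sort, the removal of myelin, and a digestion with collagenase and dispase at 37 C for 45 min. The protocol has no mention of an inhibitor of transcription, and no library without the warm step is among those analysed here. The barcodes carry a suffix from 1 to 3 that no label or file ties to a group, so the cells of each suffix are called library 1, 2 and 3, and Ctrl, D0 and D2 were not compared. With 1 library each there are no replicates and no p-values, and the intervals printed cover counting error only, at 95%, not the spread between cells or animals.

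Libraries 1, 2 and 3 held 1263, 599 and 287 cells, no barcode sequence occurred in more than 1 library, and 2137 cells were used. Median depth was 3660, 6215 and 8143 unique molecular identifiers (UMIs) per cell. Of the cells used in library 1, 1088 were microglia-like and 89 were border-associated-macrophage-like, whereas libraries 2 and 3 held 58 and 2 microglia-like cells among monocyte-like, dendritic-like, neutrophil-like and NK-like cells and an unnamed cluster led by cell cycle genes, called cycling cells here. The labelled cell type, microglia, was therefore the main class in library 1 only. Both microglia-like clusters passed the naming rule for 10 of 10 microglia markers, and the border-associated-macrophage-like cluster passed it for those 10 markers as well. RNA of other classes was counted in most classes: P2ry12, a microglial receptor, stood at 4906 CPM (UMIs of a gene scaled to 1000000 UMIs of the class) in microglia-like cells of library 1 and at 818 CPM in the 13 NK-like cells of that library, against 3.82 CPM in NK-like cells of library 2. The neutrophil gene S100a8 stood at 27.1 CPM in microglia-like cells of library 1 and at 314 CPM in those of library 2. Every class can express the 10 genes, so no class served as their own blank, and the part of free RNA in their levels was not tested.

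RefSeq promoters (GRCm38.p6, the 250 bases before the start site) matched 8 of the 10 genes. Printed here, on the gene's own strand, are those of Fos and Jun, the partners that give AP-1 its name, and of Dusp1 and Btg2, the feedback genes, because they hold matches to response elements described for such genes. Capitals mark matches on either strand to TGACGTCA, the cyclic AMP response element that Creb, Atf and AP-1 proteins bind, to its variant TGACATCA, or to the shorter core TGACG.
Fos, chr12:85473640-85473889, plus strand: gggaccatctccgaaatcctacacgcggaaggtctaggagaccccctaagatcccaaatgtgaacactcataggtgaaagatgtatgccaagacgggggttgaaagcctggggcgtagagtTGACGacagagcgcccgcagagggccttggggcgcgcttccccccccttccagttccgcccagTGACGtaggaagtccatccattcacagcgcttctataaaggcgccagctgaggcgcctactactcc
Jun, chr4:95052223-95052472, minus strand: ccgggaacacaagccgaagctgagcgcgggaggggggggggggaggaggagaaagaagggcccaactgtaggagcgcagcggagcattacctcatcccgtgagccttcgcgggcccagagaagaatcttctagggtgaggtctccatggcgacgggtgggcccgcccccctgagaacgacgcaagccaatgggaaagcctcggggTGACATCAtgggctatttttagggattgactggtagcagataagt
Dusp1, chr17:26508473-26508722, minus strand: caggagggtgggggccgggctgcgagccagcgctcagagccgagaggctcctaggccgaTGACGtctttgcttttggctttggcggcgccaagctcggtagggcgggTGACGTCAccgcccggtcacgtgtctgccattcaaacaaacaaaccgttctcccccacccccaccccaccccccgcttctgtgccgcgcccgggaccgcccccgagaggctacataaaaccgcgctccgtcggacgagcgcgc
Btg2, chr1:134079156-134079405, minus strand: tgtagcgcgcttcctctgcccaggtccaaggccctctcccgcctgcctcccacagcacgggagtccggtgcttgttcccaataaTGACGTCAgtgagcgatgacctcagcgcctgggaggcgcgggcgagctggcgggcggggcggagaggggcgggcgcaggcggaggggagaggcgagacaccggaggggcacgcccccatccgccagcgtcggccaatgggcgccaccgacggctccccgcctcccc

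Positions are those of the first base of a match, and the base just before the start site is -1. Dusp1 held TGACGTCA at -143 and Btg2 held it at -166, an element found in 1.55% of 32851 mouse promoters of the same length. Jun held TGACATCA at -45, the variant long known from its promoter, which 2.93% of the promoters hold. Fos held TGACG at -129 and at -66, and Fosb, Junb and Atf3 held this core once each, against 17.8% of promoters. The core lies within TGACGTCA, so Dusp1 and Btg2 hold it too. None of the 8 windows held a CArG box, the serum response element (1.47% of promoters), or TGANTCA, the element at which AP-1 itself binds (6.75% of promoters). The windows span 250 bases, so elements further from the start site were not searched, and Egr1 and Ier2 had no window. The Jund window, chr8:70697489-70697738 on the plus strand, ends short of the gene start given above, chr8:70698949. Dusp1 and Atf3 lie on the minus strand, so the gene spans given above start at chr17:26562128 and chr1:191218039. Their windows, chr17:26508473-26508722 and chr1:191183334-191183583, lie inside those spans and not before them. A match describes the letters only. The set of motifs was revised after a first search had been seen.

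Levels are CPM of the pooled counts of each class and library, for the 17 combinations with at least 20 cells. The assay counts 1 tag near the 3′ end of each transcript, so counts do not scale with transcript length. The plot of levels by class shows all 10 genes.

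**Figure D1:**
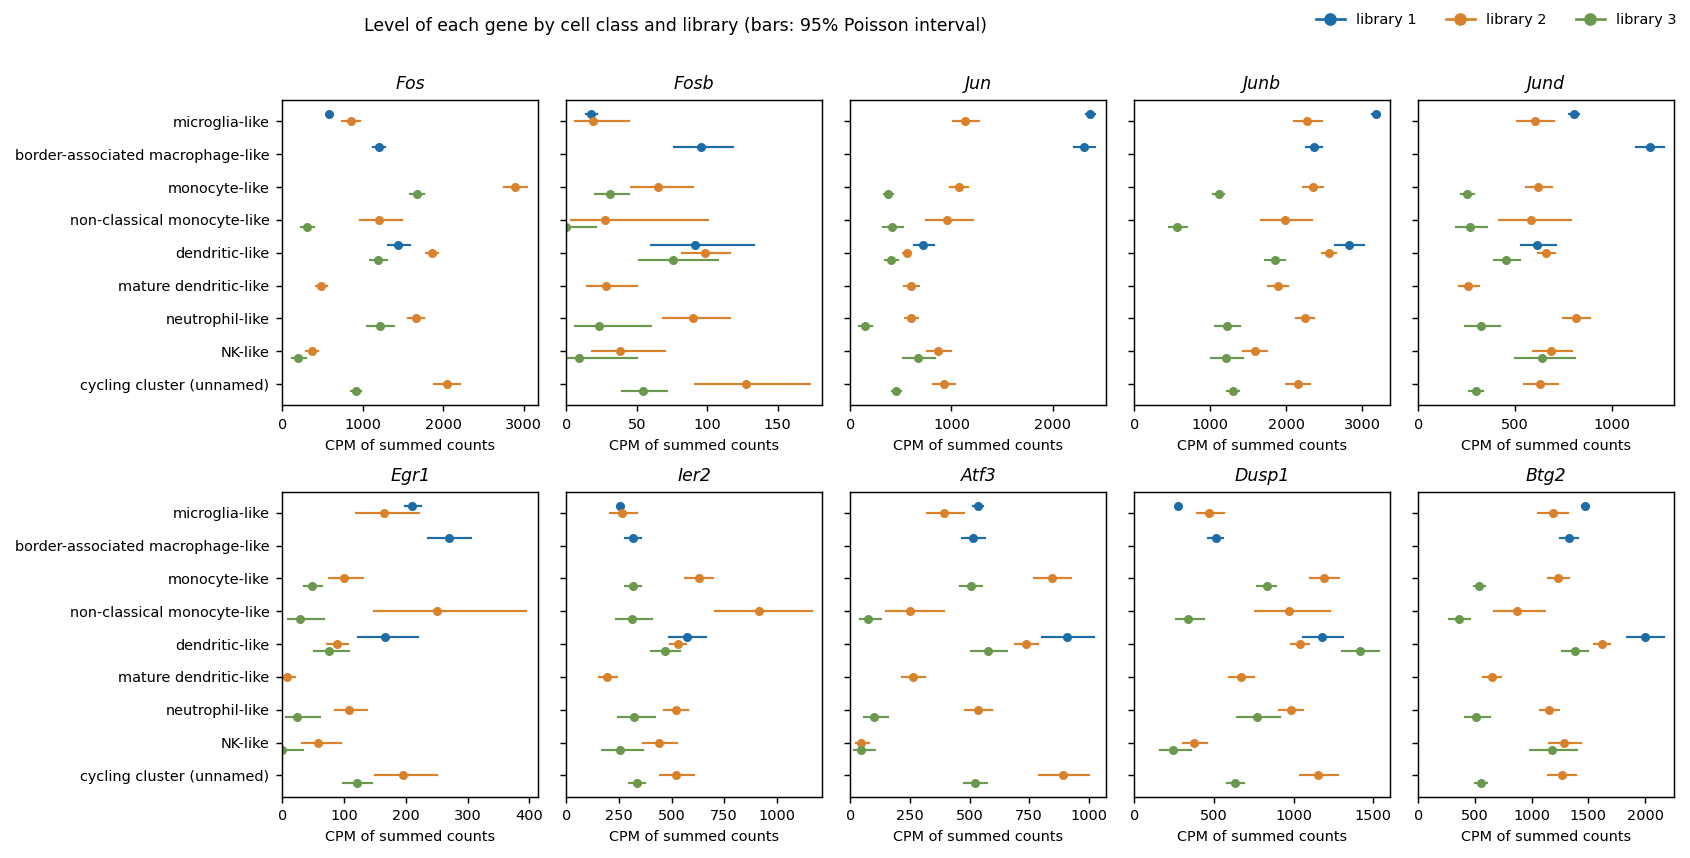
CPM of summed counts for each of the 10 genes (x axis, 1 panel per gene, scales differ) in 9 cell classes (y axis) and 3 libraries (colours); points are levels and bars are exact Poisson 95% intervals. Fos is highest in monocyte-like cells of library 2 at 2896 CPM, Jun and Junb are highest in microglia-like cells of library 1 at 2370.0 CPM and 3182 CPM, and green points of library 3 lie left of the orange points of library 2 for most genes in monocyte-like cells.

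Of the Fos family, Fos was high in monocyte-like, cycling and dendritic-like cells of library 2 and low in NK-like and mature-dendritic-like cells and in non-classical-monocyte-like cells of library 3. It stood at 2896 CPM (2758-3040) in monocyte-like cells of library 2, at 2045 CPM in cycling cells of library 2 and at 1859.6 CPM in dendritic-like cells of library 2. At the other end it stood at 199 CPM in NK-like and 306 CPM in non-classical-monocyte-like cells of library 3, and microglia-like cells of library 1, at 586 CPM (565-608), were in the lower part of the order. The range over the 17 combinations was 14.6-fold, and 11 neighbours in the order had overlapping intervals. Fosb, an inducible partner of the Jun proteins, ran from 0 UMIs in non-classical-monocyte-like cells of library 3 to 128 CPM in cycling cells of library 2. In microglia-like cells it stood at 17.6 CPM in library 1 and 19.2 CPM in library 2, and all 16 neighbouring pairs in its order overlapped.

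Of the Jun family, Jun set the library 1 macrophages apart. It stood at 2370.0 CPM (2327-2413) in microglia-like cells and at 2311 CPM (2212-2414) in border-associated-macrophage-like cells of library 1, which overlap, and next came microglia-like cells of library 2 at 1138 CPM (1012-1275), which overlapped monocyte-like cells of library 2 at 1070.1 CPM (987-1159). From there Jun ran down to 141 CPM (90.6-210.4) in neutrophil-like cells of library 3. Junb, the most abundant of the 10 in microglia-like cells, ranged from 565 CPM in non-classical-monocyte-like cells of library 3 to 3182 CPM (3133-3233) in microglia-like cells of library 1, with dendritic-like cells of library 1 next at 2828 CPM (2640-3027). Jund, the Jun subunit that is held at a steady level in many cells, had a range of 4.76-fold. The ranges of Jun and Junb were 16.8-fold and 5.63-fold, and that of Ier2, outside this family, was 4.70-fold. Jund was highest in border-associated-macrophage-like cells of library 1, at 1197 CPM (1125-1271), and lowest in monocyte-like cells of library 3, at 252 CPM (220-286).

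Atf3 was lowest in NK-like cells, and Egr1 in NK-like cells of library 3 and in mature-dendritic-like cells. Atf3 stood at 45.9 CPM and 45.2 CPM in NK-like cells of libraries 2 and 3, and at 908 CPM (802-1023) in dendritic-like cells of library 1, a range of 20.1-fold over the 17 combinations. Its 536 CPM (516-557) in microglia-like cells of library 1 overlapped border-associated-macrophage-like cells at 514 CPM and neutrophil-like cells of library 2 at 534 CPM. Egr1 was highest in border-associated-macrophage-like cells, at 269 CPM (236-306), and in microglia-like cells of library 1, at 211 CPM (198-224), with non-classical-monocyte-like cells of library 2 between them at 249.9 CPM, where 50% of the UMIs came from 1 cell. In mature-dendritic-like cells Egr1 stood at 7.14 CPM, from 3 UMIs. No Egr1 UMI was counted in the 33 NK-like cells of library 3, which allows up to 27.1 CPM at 3 counts. In NK-like cells of library 2 Egr1 stood at 57.3 CPM (32.1-94.6). Ier2 was highest in non-classical-monocyte-like cells of library 2, at 916 CPM (709-1166), and lowest in mature-dendritic-like cells, at 195 CPM (155-242). Microglia-like cells were near the bottom for Ier2, at 256 CPM and 264 CPM in libraries 1 and 2.

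The feedback genes took different orders. Dusp1 was highest in dendritic-like cells of library 3, at 1418 CPM (1305-1539), and near its lowest in microglia-like cells of library 1, at 274 CPM (259-289), where NK-like cells of library 3, at 244 CPM (161-355), overlapped. Btg2 was highest in dendritic-like cells of library 1, at 1995 CPM (1837-2163), and stood at 1473 CPM (1439-1507) in microglia-like cells of library 1. Its lowest level was 358 CPM (274-459), in non-classical-monocyte-like cells of library 3.

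Within a library, microglia-like cells held more Jun and less Fos, Fosb, Ier2 and Dusp1 than dendritic-like cells. A gene is called here when it has at least 50 UMIs over both sides and differs by a fold of 2 or more, with no test. In library 1, Jun was 3.28 times as high in microglia-like cells (log2 ratio 1.72), the single one of the 10 called higher, where 36.2% of all genes tested were. Fos, Fosb, Ier2 and Dusp1 were lower, with log2 ratios of -1.30, -2.38, -1.16 and -2.11, where 7.17% of genes were. In library 2, Jun was again the single gene of the 10 called higher (log2 ratio 1.03), where 16.4% of genes were. Fos, Fosb, Ier2 and Dusp1 were lower there too, at ratios of 0.457, 0.195, 0.499 and 0.454, where 18.9% of genes were. In library 1 Jun, Fos and Dusp1 stayed past the fold of 2 under the 5 alternatives that gave both classes, at log2 ratios of 1.48 to 1.83, -1.22 to -1.13 and -2.27 to -1.96. In library 2 each kept its sign but was under the fold of 2 in 3 of the 5, with Jun at 0.90 to 1.17, Fos at -1.32 to -0.48 and Dusp1 at -1.44 to -0.72. The ratios of Fosb and Ier2 were not recomputed. In library 2 Fosb rested on 5 UMIs in microglia-like and 130 in dendritic-like cells. Over the alternatives its microglia-like level there ran from 10.4 to 56.8 CPM and that of Ier2 from 204 to 422 CPM. Dendritic-like cells of library 2 stood at 98.1 and 530 CPM at the main settings. The medians of the 10 were -0.60 and -0.68 in libraries 1 and 2, beside 0.54 and -0.09 for all genes tested. P2ry12 stood at 488 CPM in dendritic-like cells of library 1 and at 16.6 CPM in those of library 2, so the former held more microglial RNA.

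The other classes gave shorter lists. Against border-associated-macrophage-like cells of library 1, microglia-like cells were lower in Fos (log2 ratio -1.03) and Fosb (-2.44), 2 of 10 where 3.75% of genes were lower. The other 8 genes were within a fold of 2, so 0 of 10 were higher where 3.58% of genes were. Against monocyte-like cells of library 2, Fos, Ier2, Atf3 and Dusp1 were lower, 4 of 9 tested where 22.2% of genes were, and 0 were higher where 13.9% were. Against non-classical-monocyte-like cells of library 2, Ier2 (ratio 0.289) and Dusp1 (0.485) were lower, 2 of 9 tested where 15.8% of genes were, and 0 were higher where 24.9% were. Against neutrophil-like cells of library 2, Fosb (0.213) and Dusp1 (0.480) were lower, 2 of 10 where 18.6% of genes were, and 0 were higher where 19% were. Against the cycling cells of library 2, Fos (0.416), Atf3 (0.443) and Dusp1 (0.408) were lower, 3 of 9 tested where 21.7% of genes were, and 0 were higher where 17.5% were. Over the alternatives the level of Dusp1 in microglia-like cells of library 2 ran from 340 to 687 CPM and that of Fos from 662 to 1455 CPM. Ier2 ran from 204 to 422 CPM, Atf3 from 329 to 586 CPM and Fosb, from 5 UMIs at the main settings, from 10.4 to 56.8 CPM. So calls of these genes within that library depend on how the class is drawn. Their ratios to the classes of this paragraph were not recomputed. Against mature-dendritic-like cells, Jund alone of 8 tested was higher (ratio 2.32), where 21.5% of genes were, and 0 were lower where 24% were. Against NK-like cells of library 2, Fos, Egr1 and Atf3 were higher, 3 of 9 tested where 20.4% of genes were, 0 were lower where 25.1% were, and Atf3 was 8.61 times as high (103 against 12 UMIs).

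In microglia-like cells, Jun was the single gene of the 10 that passed the fold of 2 between libraries 2 and 1. It stood at 2370.0 CPM in the 1088 cells of library 1 and at 1138 CPM in the 58 cells of library 2, a ratio of 0.480. Fos and Dusp1 lay the other way, at 586 and 851 CPM (ratio 1.45) and at 274 and 471 CPM (ratio 1.72), with intervals that do not overlap. Junb, Jund, Atf3 and Btg2 had ratios from 0.716 to 0.804, also with separate intervals, and the intervals of Fosb, Egr1 and Ier2 overlapped. The sums rest on 4952732 UMIs in library 1 and 260951 in library 2. So 1 of 10 genes was called lower and 0 of 10 higher, where 21% and 2.22% of the 7242 genes tested were. The median log2 ratio was -0.34 for the 10 genes and -0.34 for all genes.

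These values depend on which 58 cells of library 2 are called microglia-like. Over the 6 alternatives that redraw the class or keep doublets, 54 to 73 cells of library 2 took the name, Jun had ratios from 0.447 to 0.574, Fos from 1.32 to 2.41 and Dusp1 from 1.55 to 2.35. With the 10 genes and their relatives allowed to shape the clusters, with cells named one by one, or with a limit of 5% mitochondrial counts or of 1000 genes per cell, 0 genes were called lower and 3, 2, 3 and 3 were called higher: Fos and Dusp1 in each, and Fosb in all but the naming one by one. Of all genes tested, 19.5% to 20.7% were lower and 2.4% to 2.76% higher in these 4 settings. In the larger of the 2 microglia-like clusters alone, Ier2 was lower (0.491, from 7 UMIs in library 2, with overlapping intervals), 1 of 9 tested where 19.6% of genes were lower, 0 were higher where 2.05% were, and Fos had a ratio of 0.797. In the other cluster alone, with 18 cells in library 2, Jun was lower (0.365), where 26.9% of genes were, and Dusp1 higher (2.02), where 3.11% were. Jun stayed below 1 in all of these settings, whereas Fos did not stay on one side. Microglia-like cells of library 2 also held more neutrophil RNA (S100a8, above), and their summed microglia markers stood at 21215 CPM against 36197 CPM in library 1. Whether these move the ratios was not tested.

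Between libraries 3 and 2 the genes were lower in library 3 in several classes. In monocyte-like cells, 6 of 10 were called lower (Fosb, Jun, Junb, Jund, Egr1 and Btg2), where 4.39% of genes were, and 0 of 10 higher, where 5.99% were. Jun stood at 1070.1 CPM (987-1159) in library 2 and at 377 CPM (338-419) in library 3, and Btg2 at 1236 CPM and 539 CPM. The other 4 genes, Fos, Ier2, Atf3 and Dusp1, had ratios from 0.501 to 0.698, and no interval of the 10 overlapped between the libraries. The median log2 ratio of the 10 was -1.07, beside 0.17 for all genes. Under the 5 alternatives that kept this class the count called fell to between 1 and 4, of 8 to 10 tested, where 2.28% to 4.42% of genes were lower. All 10 ratios stayed below 1 under each of the 5 alternatives that kept the class, and without the top cell of each library. The monocyte-like cells of the 2 libraries also differed in RNA of other classes: summed dendritic markers stood at 1674 and 621 CPM in libraries 2 and 3, and summed neutrophil markers at 982 and 2002 CPM, and their part in the ratios was not tested.

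In non-classical-monocyte-like cells all 7 genes with enough UMIs were lower in library 3, where 4.29% of genes were, and the median of the 10 ratios was 0.320. None was higher, where 3% of genes were. Fosb, Egr1 and Atf3 had too few UMIs. Junb stood at 1986 CPM (1674-2339) in the 23 cells of library 2 and at 565 CPM (459-689) in the 42 cells of library 3. In library 2, 1 cell held 29.4% of the UMIs of the 10 genes there. Without the cell with most such UMIs in each library, 6 of 7 were lower, Jun at 0.510 was not, and the median ratio was 0.417. The shares of cells do not all follow the levels: at 2000 UMIs per cell, Jun was detected in 6 of 19 cells of library 2 (31.6%, 12.6-56.6) and in 17 of 41 of library 3 (41.5%, 26.3-57.9), so no order is read for it. In these cells summed microglia markers stood at 1763 and 565 CPM in libraries 2 and 3, and summed neutrophil markers at 667 and 329 CPM, and their part was not tested.

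In neutrophil-like cells 6 of 10 genes were lower in library 3 (Fosb, Jun, Jund, Egr1, Atf3 and Btg2), where 14.8% of genes were, and 0 higher where 2.96% were. Atf3 stood at 534 CPM (479-594) and 100.2 CPM (58.3-160.4), and Jun at 603 CPM (544-666) and 141 CPM. Jun depended on the class: its ratio of 0.235 became 0.587 to 0.668 at resolution 1, with doublets kept, or at 5% mitochondrial counts, where 4 of 10 and 10.9% to 16.2% of all genes were lower, while that of Atf3 was 0.183 to 0.276. In library 3, 1 cell held 22.8% of the UMIs of the 10 genes, and 7 of 10 were lower without the top cell of each library. Summed neutrophil markers took 123864 CPM in library 2 and 301509 CPM in library 3, and homeostatic microglia genes, 9 of 10 tested, were also lower in library 3; the part of either in these ratios was not tested. In cycling cells, 5 of 10 genes were lower (Fos, Fosb, Jun, Jund and Btg2), where 4.39% of genes were, and 0 higher where 11.1% were. Their summed dendritic markers stood at 2185 and 839 CPM in libraries 2 and 3, monocyte markers at 2101 and 1140 CPM, and microglia markers at 2514 and 4690 CPM. The part of these in the ratios was not tested, and cycling cells were not recomputed under the alternatives or without top cells.

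Dendritic-like cells had no gene of the 10 past the fold of 2 in either direction, where 2.78% of genes were lower and 2.53% higher. The ratios ran from 0.641 for Fos to 1.36 for Dusp1, which stood at 1039 CPM (985-1096) in library 2 and 1418 CPM (1305-1539) in library 3. Of the 10 ratios 9 were below 1, and intervals were separate for 6 genes below and 1 above. The median log2 ratio of the 10 was -0.36, beside 0.12 for all genes. Dendritic-like cells of libraries 1 (31 cells) and 2 were also close, with 0 of 10 called where 3.39% of genes were lower and 2.96% higher in library 2. In library 3 against library 1, Egr1 alone was lower (0.458), where 4.71% of genes were, and 0 were higher where 3.39% were. In NK-like cells 0 of 7 genes tested were called, where 1.42% of genes were lower and 1.42% higher, and the median of the 10 ratios was 0.705. Without the top cell of each library, 1 of 7 was called lower there, Dusp1 at a ratio of 0.350. Median depth per cell was 5851 and 9370 UMIs in monocyte-like cells of libraries 2 and 3 and 8117 and 8785 in dendritic-like cells, and the part of depth was not tested. The difference between classes in these ratios was not tested either, since each library is a single sample.

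**Figure D2:**
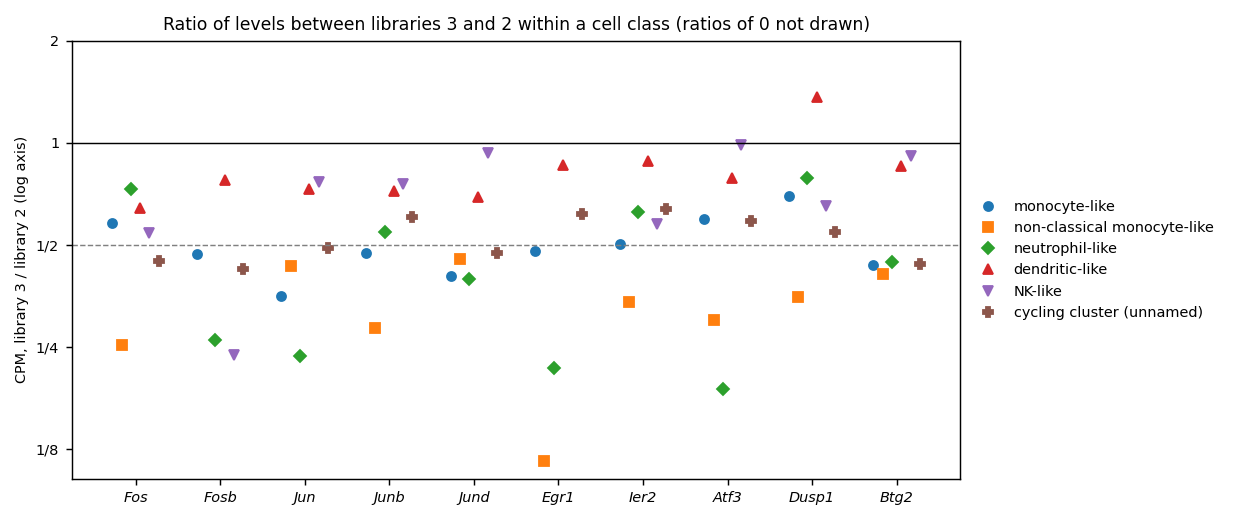
Ratio of CPM in library 3 to CPM in library 2 (y axis, log scale; solid line at 1, dashed line at 1/2) for each of the 10 genes (x axis), with 1 symbol per cell class; ratios of 0 are not drawn. All monocyte-like, neutrophil-like and cycling points lie below 1, and the single point clearly above 1 is Dusp1 in dendritic-like cells, at 1.36.

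Related lists were read in monocyte-like cells of libraries 3 and 2, where 4.39% of all genes were lower and 5.99% higher. They were read at the main settings only and not under the alternatives that redraw this class. Of 20 other immediate early genes, 13 had enough UMIs and 8 were lower: Nr4a2, Ier3, Ier5, Klf4, Klf6, Klf10, Ppp1r15a and Gadd45b. Of 14 feedback genes 2 of 11 tested were lower, of 16 upstream kinases and factors 0 of 5, and of 17 other AP-1 and related zipper factors 0 of 7 were lower and 1 (Maf) higher. Cytokines and chemokines split, with 5 of 11 tested higher (Il1a, Ccl2, Ccl7, Ccl12 and Cxcl2) and 2 lower (Il6 and Ccl3). Of the heat shock genes 3 of 9 tested were lower (Hspa1a, Hspa1b and Dnajb1), and of the homeostatic microglia genes 3 of 11 were higher (Tmem119, Fcrls and Olfml3). In dendritic-like cells 2 of 13 other immediate early genes were lower (Ier3 and Klf10), where 2.78% of genes were, and 0 higher, where 2.53% were.

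To see how the genes sit together in single microglia-like cells, 2000 UMIs were drawn at random from each cell, which left out 68 shallower cells of library 1 and 6 of library 2. Of 1020 cells of library 1, Jun was detected in 87.8% (85.7-89.8), Junb in 83.5% (81.1-85.8), Btg2 in 79.3% (76.7-81.8) and Jund in 61.7% (58.6-64.7). Fos was detected in 36.1% (33.1-39.1), Atf3 in 32.1% (29.2-35.0), Dusp1 in 24.4%, Ier2 in 23.4%, Egr1 in 21.9% and Fosb in 2.06%. Before thinning the shares were 91.5% for Jun and 44.3% for Fos. So Jun, Junb and Btg2 were seen in most cells at this depth and Fosb, in 21 cells, hardly at all. In 52 cells of library 2, Jun was detected in 71.2% (56.9-82.9), which does not overlap library 1, Fos in 30.8% (18.7-45.1), and Fosb in 0, which allows up to 6.85% by the exact interval.

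The number of the 10 genes per cell was spread more widely than independent detection would give. In library 1 a cell held 4.52 ± 1.94 of them (mean and SD over cells, median 4, range 0 to 10). At most 1 was seen in 50 cells (4.90%), where the product of the 10 shares gives 0.632%. At the top, 29 cells held 9 and 3 cells held all 10, where the product gives 0.0669% and 0.00107% of cells. The share with 5 or more was 48.3% (45.2-51.5), near the 50.2% of the product, so the excess lay at both ends. In library 2, 48.1% (34.0-62.4) of cells held 5 or more and 10 of 52 held just 1.

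**Figure D3:**
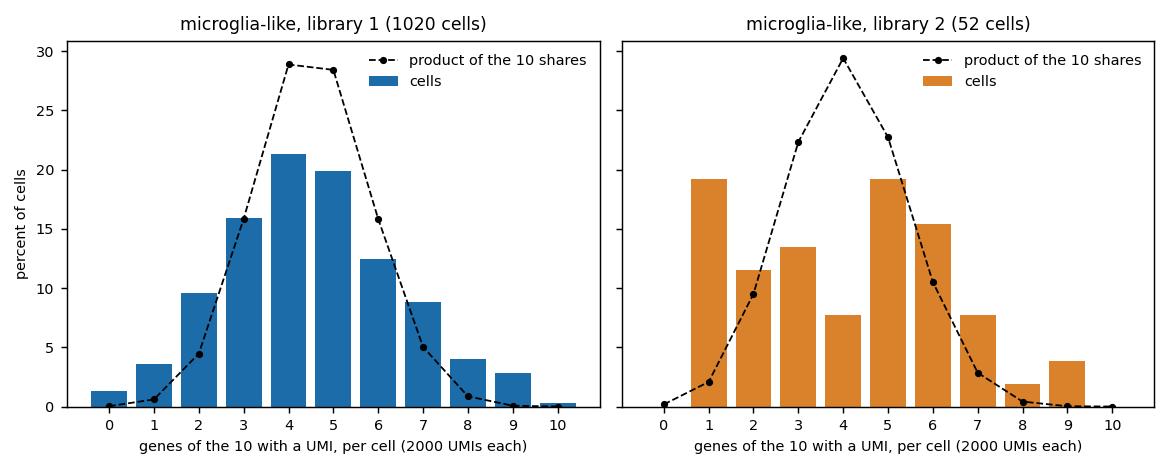
Percent of microglia-like cells (y axis) by the number of the 10 genes with a UMI (x axis) after thinning to 2000 UMIs, in library 1 (left, 1020 cells) and library 2 (right, 52 cells); dashed points are what the product of the 10 shares gives. Bars exceed the dashed points at 0 to 3 genes and at 7 or more in library 1, by little at 3 genes (15.88% against 15.84%).

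The cells with many of the genes were mostly in 1 of the 2 microglia-like clusters. The larger, led by P2ry13, Adora3 and P2ry12, had 28.3% (24.7-32.0) of its library 1 cells with 5 or more, and the other, led by Adamts1, Gem, Hk2, Myc, Sgk1 and Ccl3 and with no microglia marker among its 10 leading genes, had 77.6% (73.3-81.5). The same split appeared in library 2, at 29.4% (15.1-47.5) and 83.3% (58.6-96.4). In library 1 Junb stood at 1631 and 4428 CPM and Atf3 at 126 and 866 CPM in the respective clusters, while Jun, at 1860.3 and 2779 CPM, and Btg2, at 1226 and 1671 CPM, differed less. The clusters were drawn without the 10 genes, but from genes that vary with them, so this is a description. The clusters differed in depth as well, with medians of 2855 and 5601 UMIs in library 1, and the share with 5 or more genes was 31.0%, 42.8% and 72.6% in cells of 2000 to 3000, 3000 to 5000, and over 5000 UMIs before thinning to the same 2000. The part of depth was not tested.

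The pairs of the 10 genes were seen together in more library 1 cells than the product of their shares gives. The ratio exceeded 1 in 45 of 45 pairs, with a median of 1.14 and a range of 1.02 to 2.40. The lowest was that of Jun with Junb, which most cells held. Fosb had the highest, with Egr1 (11 cells against 4.59), Fos (17 against 7.58) and Atf3 (15 against 6.73), but it was seen in 21 cells. Outside Fosb the highest was that of Egr1 and Atf3, together in 134 cells against 71.5: Atf3 was detected in 60.1% of cells with Egr1 and in 24.2% of those without. Ier2 was paired with Egr1 (88 cells against 52.3), Atf3 (124 against 76.6) and Dusp1 (94 against 58.3), at ratios of 1.61 to 1.68. These ratios pool both microglia-like clusters, and each of the 10 genes was detected in a larger share of the cluster led by Adamts1. In the larger cluster and in that one, Fos was detected in 25.0% and 52.3% of cells, Egr1 in 10.2% and 38.8%, and Atf3 in 14.7% and 57.3%. Pair ratios within a cluster were not computed, so the part of the clusters was not tested.

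Across the same cells Pearson's r of log counts had a median of 0.232 (0.0428 to 0.437), a description over cells of 1 library that share its depth and free RNA. It was highest for Junb with Atf3, at 0.437, and with Egr1, at 0.389. For Jun it was 0.161 with Atf3 and 0.304 with both Btg2 and Jund. In library 2, 35 of 45 pairs exceeded 1 with a median of 1.27, and the 9 pairs with Fosb had no value. Egr1 and Atf3 were again together more often, in 7 cells against 2.50. Under the alternatives at least 44 of 45 pairs of library 1 stayed above 1, also among cells of 2000 to 5000 UMIs, where the median was 1.16. In library 2 the count above 1 ran from 27 to 45 of 45 pairs.

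**Figure D4:**
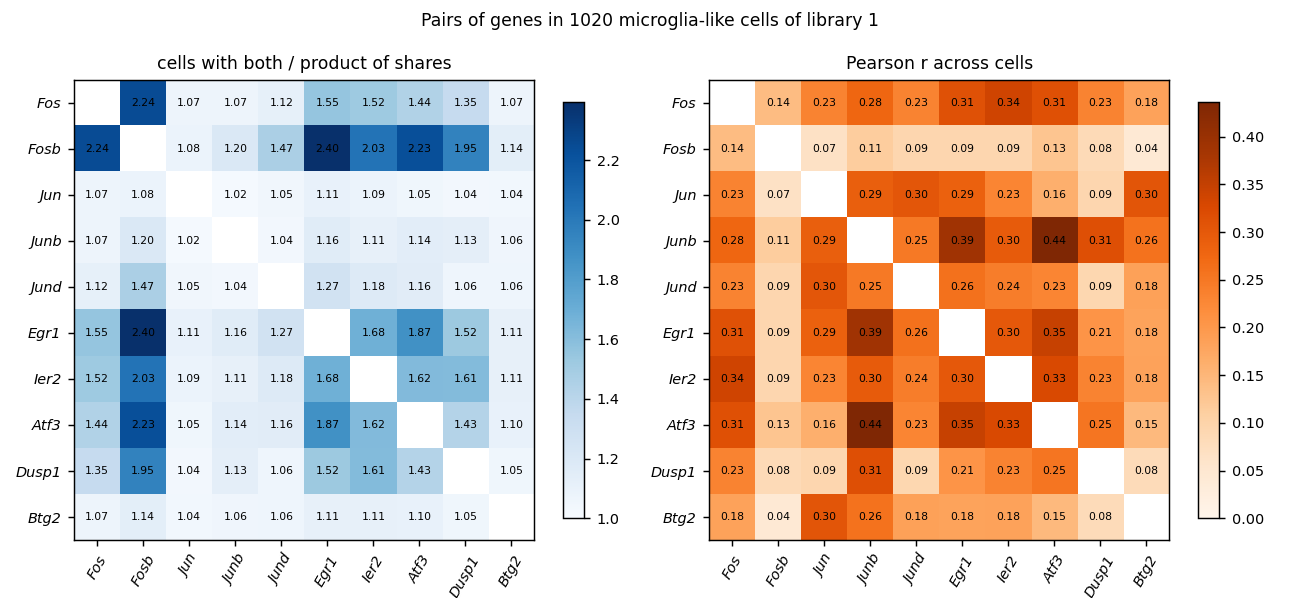
For each pair of the 10 genes in 1020 microglia-like cells of library 1 thinned to 2000 UMIs, the left grid gives cells with both over the number the product of their shares gives and the right grid gives Pearson's r of log counts across cells; darker is higher. Every ratio is above 1, with both microglia-like clusters pooled. The Fosb row is highest on the left with few cells behind it, and Junb with Atf3 is highest on the right, at 0.437.

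Other genes that came with the 10 were read from the 493 library 1 cells with at least 5 of them against the 50 cells with at most 1, with the 10 left out. These are ends of a range and not cell types: 217 cells held 4 and 98 held 2. Of 2818 genes with at least 50 UMIs, 256 (9.08%) were higher and 54 (1.92%) lower. Other immediate early genes were higher in 12 of 13 tested (11 where the 2 genes with no UMI in the cells with few, Nr4a1 and Csrnp1, are set at 3 UMIs). Gadd45b, a growth arrest and stress gene, stood at 231 CPM against 10 CPM, which is 1 UMI on the smaller side, Ier3 at 494 CPM against 30 CPM (3 UMIs), Klf2 at 496 CPM against 70 CPM, Ier5 at 1740.4 CPM against 570 CPM, and Sgk1, a kinase induced by serum and steroids, at 902 CPM against 380 CPM. Rhob, at 1391 against 830 CPM, was the exception.

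Feedback genes were higher in 7 of 9 tested and cytokines and chemokines in 7 of 9, where 9.08% of all genes were. The cells with many held 986000 UMIs and those with few 100000, so a gene could reach 50 UMIs through the former alone. Tnf, Ccl2, Cxcl10, Dusp2 and Nfkbiz had 0 UMIs in the cells with few, Cxcl2 had 1, and Il1b and Tob2 had 2. Nfkbia, the inhibitor that NF-kB induces against itself, stood at 2149 CPM against 110 CPM, and Zfp36, which destabilises cytokine mRNAs, at 1227 CPM against 210 CPM. Socs3, a brake on cytokine receptors, stood at 601 CPM against 90 CPM, and Zfp36l1 at 302 CPM against 120 CPM. The chemokines Ccl4 and Ccl3 stood at 4619 against 530 CPM and at 2681 against 330 CPM, and Tnf at 256 CPM against 0 of 100000 UMIs, which allows up to 30 CPM at 3 UMIs. Il1a, at 228 against 120 CPM, and Ccl12, at 229 against 250 CPM, did not pass. Among heat shock genes 3 of 9 were higher (Hspa1a, Hsp90aa1 and Dnajb1), Hspa1a at 1353 against 350 CPM and Hsp90aa1 at 608 against 140 CPM, while Hspa8, at 1792 against 1600 CPM, and Hsp90ab1, at 963 against 730 CPM, did not pass.

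Homeostatic microglia genes were higher in 0 of 15 tested and lower in 0. P2ry12 stood at 4710 against 5540 CPM, Selplg at 3927 against 4190 CPM and Sparc at 3418 against 3160 CPM. Csf1r, the target of PLX5622, stood at 2685 against 2510 CPM. Upstream kinases and factors were higher in 0 of 6, with Rps6ka1 at 189 against 210 CPM, Map2k1 at 141 against 200 CPM, Mapk3 at 130 against 150 CPM and Elk3 at 95.3 against 70 CPM. Other AP-1 and related factors were higher in 0 of 4, with Maf at 317 against 420 CPM, Mafg at 174 against 130 CPM and Atf4 at 148 against 80 CPM. The median log2 ratios were 1.95 for other immediate early, 1.48 for feedback and 2.75 for cytokine genes with a UMI on both sides (1.95, 1.96 and 2.61 with the others at 3 UMIs). They were 0.40 for heat shock, 0.39 for other AP-1 and related, 0.10 for homeostatic and -0.18 for upstream genes, beside -0.02 for all genes.

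The 2 sets of cells differed in depth before thinning, at medians of 4943 and 2872 UMIs, and little in mitochondrial share (1.17% and 1.24%) or genes per thinned cell (968 and 979.5). Among cells of 2000 to 5000 UMIs, 116 of 1649 genes tested (7.03%) were higher, and so were 10 of 11 other immediate early, 5 of 7 feedback and 3 of 5 cytokine genes. They differed in cluster too: 322 of the 493 cells with many were in the cluster led by Adamts1 and 48 of the 50 with few in the other, and Myc, Sgk1, Rhob and Ccl3, which belong to the lists read here, are among the leading genes of the former. In the larger cluster alone, with 171 cells against 48, 61 of 1235 genes (4.94%) were higher and 6 (0.486%) lower, with 6 of 7 other immediate early, 4 of 6 feedback and 2 of 3 cytokine genes among the higher. The part of cluster and depth in these values was not tested further. Summed markers of border-associated macrophages, monocytes, dendritic cells, neutrophils and NK cells each had a median of 0 UMIs per cell on both sides. Of the 10 monocyte markers, 5 were at 0 in the cells with many and all 10 in the cells with few, and microglia markers had medians of 70 and 77 UMIs.

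**Figure D5:**
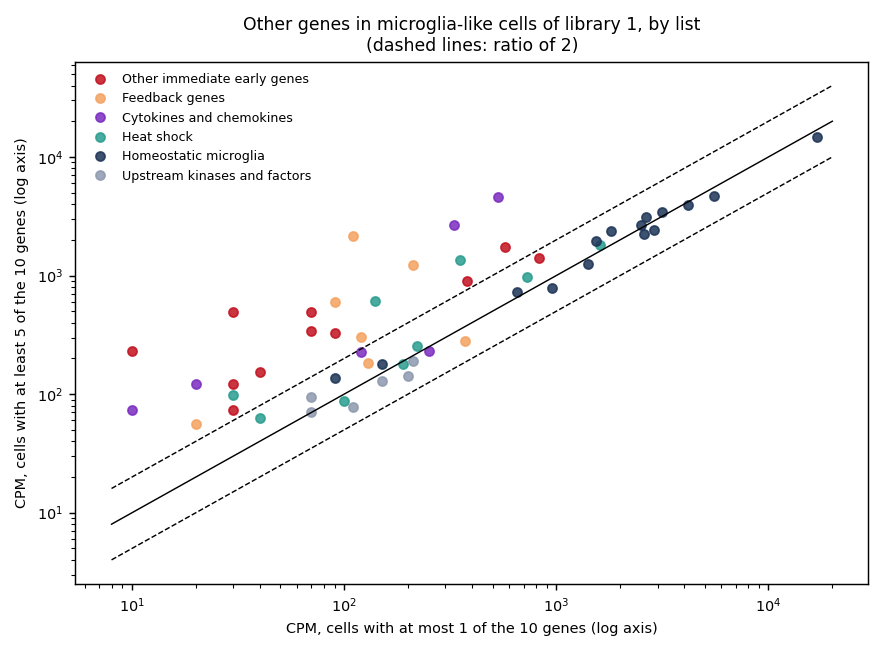
CPM of genes from 6 lists in microglia-like cells of library 1 with at least 5 of the 10 genes (y axis, log scale) against cells with at most 1 (x axis, log scale); each point is a gene with at least 50 UMIs and a UMI on both sides, the solid line marks equal levels and the dashed lines a ratio of 2. Homeostatic and upstream genes lie between the dashed lines, while Nfkbia (2149 against 110 CPM) and most other immediate early genes lie above.

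The genes most like each member across the 1020 cells, among 4386 non-member genes seen in at least 5% of them, were few and recurred. Nfkbia was among the 3 most like for Fos, Junb, Jund, Egr1, Ier2, Atf3 and Dusp1, highest with Junb (r 0.587). Cd83, a surface protein of activated antigen-presenting cells, led for Fos (0.362), Ier2 (0.360) and Atf3 (0.499). Jun and Btg2 differed, with Ier5 as the most like of both (0.283 and 0.259), and Fosb had no r above 0.149. Across the 17 combinations of class and library, the summed level of the 10 genes was most like Nfkbid (r 0.856), Egr2 (0.825), Ier5 (0.799), Sult1a1 (0.795) and Ptafr (0.788), among 5035 genes. These points share libraries, depth and free RNA, and the r values are descriptions.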

How the data were processed

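Single-cell 3′ counts were made with 10x Genomics v2 reagents, per the labels' protocols, whose text counts 4 samples in the assay, 3 of them described here. The authors deposited whole-number UMI counts per gene and cell in 1 matrix. The submitters' processing notes name Cell Ranger 2.0.1 and mm10, with no role stated. The barcode filter and annotation are not given in the sources used here.

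With scanpy 1.11.5, cells with at least 500 genes and at most 10% mitochondrial counts were kept (5 of 2149 left out). Scrublet at an expected 5% marked 7 of 2144 cells (0.326%), a low yield, so doublets may remain. Leiden clusters (igraph 0.11.9, resolution 0.5, 15 neighbours, 30 components) came from 2000 variable genes without the 10 genes and related lists. A class needed 3 markers, each in 30% of cells and at 2 times the median over clusters. The most markers among the 10 leading genes decided, then the share of the list. A cluster led by cell cycle genes stayed unnamed, a rule added after the clusters were seen. Of the marker lists, 2 genes are not analysed here.

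Sums have exact Poisson and shares exact Clopper-Pearson 95% intervals, which cover counting error only. The scripts were tested on simulated data. All 10 genes are described, with the 3 genes most like each. From each list the 4 with most UMIs in microglia-like cells were to be named, of which 2 are not reported here; further named genes were chosen after their values were seen. The genes and lists were chosen with earlier results of these data known. Gene start sites and names come from RefSeq.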

Additional observations from a re-analysis of the deposited data

How the results depend on the processing

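No paired analysis was possible because each group has 1 library and the barcode suffixes tie to no label. Under alternatives 658 values were recomputed: levels, shares, pair and call counts, the median pair ratio, and log2 ratios to dendritic-like cells. Of these, 500 stayed close to the reported value (within its 95% interval, or for counts within 1.5 times) and 158 moved. Only the log2 ratios and the median pair ratio could be scored as reversed, and 0 of those were. A level, share or count could only stay or move. Ratios of single genes between libraries were not among the 658 values, and in microglia-like cells some crossed 1: Fos from 1.45 to 0.797 in the first cluster alone, Ier2 from 1.03 to 0.889 at resolution 1, and Fosb from 1.09 to 0.703 without the top cells. The share of microglia-like cells with 5 or more of the 10 genes follows the depth at which it is read. In library 1 it was 25.2% at 1000 UMIs, 69.3% at 3000, 61.0% without thinning, 18.4% with at least 2 UMIs asked for, and 36.4% in cells of 2000 to 5000 UMIs. In library 2 it was 25.9% at 1000 UMIs and 23.1% with at least 2 UMIs. The genes higher and lower in cells with many of the 10 numbered 61 and 13 at 1000 UMIs, 849 and 331 at 3000 UMIs, 137 and 21 for at least 4 against at most 2, 496 and 302 at a fold of 1.5, 875 and 291 with at least 20 UMIs, 116 and 19 in cells of 2000 to 5000 UMIs, and 61 and 6 in the first cluster alone. For microglia-like cells of libraries 2 and 1, 0 of the 10 were lower with related genes in the clustering, cells named one by one, 5% mitochondrial counts or 1000 genes, and 3, 2, 3 and 3 were higher; 1 was higher in the second cluster alone. For monocyte-like cells of libraries 3 and 2, the number lower was 3 at resolution 1, 1 with related genes in the clustering, 3 at 5% mitochondrial counts, 4 at 1000 genes and 3 with doublets kept. For NK-like cells, 1 was lower without the top cell of each library. The depth limits, the one-cell exclusion and the single clusters were added after seeing the data, and the cause of these moves was not tested. The 50 cells with few of the genes, at 100000 UMIs, resolve steps of 10 CPM.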

Other observations

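After thinning to 2000 UMIs, 66 of 89 border-associated-macrophage-like cells of library 1 (74.2%, 63.8-82.9) had at least 5 of the 10 genes, against 48.3% (45.2-51.5) of microglia-like cells, from median depths of 8332 and 3542.5 UMIs. Among microglia-like cells over 5000 UMIs the share was 72.6%. The summed level was 10107 CPM (9898-10319) against 9712 CPM (9625-9799), and P2ry12 stood at 2191 CPM in them. In the 12 and 6 cells of that name in libraries 2 and 3, 2 and 1 cells reached 5. Summed border-associated-macrophage markers stood at 33.4 and 258 CPM in these cells, against 3790 CPM in library 1. Neutrophil markers stood at 2806 and 223 CPM in them, so the markers bear out the name in library 1 only. These are values of small sets of cells with no comparison between groups.

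The 2 microglia-like cells of library 3 had a depth of 10461 UMIs (median) and no UMI of the 10 genes after thinning.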
